A study of Mus musculus with 6 samples.

Results

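The integrin subunits described here are encoded by 10 genes, chosen by symbol for binding collagens, fibronectin, laminins or vitronectin: the alpha subunits Itga1, Itga2, Itga5, Itga6, Itga10, Itga11 and Itgav and the beta subunits Itgb1, Itgb3 and Itgb5. They are 10 of the 43472 gene symbols listed in the count tables, and all 10 had enough counts to be tested among 16152 genes. RNA was sequenced from whole intervertebral discs (IVDs) of the thoracic and lumbar spine, T8 to L5, of mice labelled C57B6/J at postnatal day 20. The mutants were Col2Cre;Adgrg6 f/f (3 libraries), in which a Cre driven by type II collagen regulatory sequence removes a part of the adhesion receptor gene Adgrg6. The controls (3 libraries) were Cre(-) littermates by the paper, given as wild type in the genotype label. Their sample titles read Col2Cre_Control, so the titles alone do not settle whether the controls carried Cre. Each library pooled the discs of 2 to 3 mice, and Col2Cre recombines throughout the disc and also, outside it, in the periosteum and in trabecular bone.

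Integrins are receptors of an alpha and a beta chain that span the cell membrane, bind the extracellular matrix outside and attach to the actin cytoskeleton inside through talin and kindlin. The alpha chain largely sets the ligand. Itga1, Itga2, Itga10 and Itga11 pair with Itgb1 and bind collagens, Itga5 with Itgb1 binds fibronectin, Itga6 with Itgb1 binds laminins, and Itgav binds RGD-bearing ligands such as vitronectin with Itgb3, Itgb5 or Itgb1. In cartilage, Itga10 is the typical collagen receptor of chondrocytes, and Itga11 is typical of fibroblasts.

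The stretches just upstream of 4 of these genes are shown because their transcripts carry the contrasts that follow: the collagen receptor pair Itga10 and Itga11, whose balance is compared within libraries, and Itga5 and Itgb1, the chains of the fibronectin receptor. Each is the 250 bases before the RefSeq start of the gene in GRCm38.p6, read 5′ to 3′ on the strand of the gene, at chr3:96645334-96645583 on the plus strand for Itga10, chr9:62677605-62677854 on the plus strand for Itga11, chr15:103366792-103367041 on the minus strand for Itga5 and chr8:128685404-128685653 on the plus strand for Itgb1. By the GENCODE coordinates of the genes, Itga11 starts before the end of its window, so the last bases shown lie inside that gene model. Capitals mark matches on either strand to the motifs searched.
Itga10: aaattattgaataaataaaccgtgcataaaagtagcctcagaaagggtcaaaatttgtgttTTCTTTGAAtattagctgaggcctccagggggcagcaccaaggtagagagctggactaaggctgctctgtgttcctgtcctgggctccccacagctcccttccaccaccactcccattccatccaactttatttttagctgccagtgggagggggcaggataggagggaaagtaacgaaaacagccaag
Itga11: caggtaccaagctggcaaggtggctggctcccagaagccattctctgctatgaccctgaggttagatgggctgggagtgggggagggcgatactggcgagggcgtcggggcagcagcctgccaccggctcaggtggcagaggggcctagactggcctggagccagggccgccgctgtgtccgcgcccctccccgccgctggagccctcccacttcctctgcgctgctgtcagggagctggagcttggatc
Itga5: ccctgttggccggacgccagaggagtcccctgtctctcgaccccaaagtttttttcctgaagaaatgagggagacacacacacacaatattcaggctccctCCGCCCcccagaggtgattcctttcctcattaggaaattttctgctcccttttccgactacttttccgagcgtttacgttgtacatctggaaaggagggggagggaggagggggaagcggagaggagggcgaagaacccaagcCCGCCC
Itgb1: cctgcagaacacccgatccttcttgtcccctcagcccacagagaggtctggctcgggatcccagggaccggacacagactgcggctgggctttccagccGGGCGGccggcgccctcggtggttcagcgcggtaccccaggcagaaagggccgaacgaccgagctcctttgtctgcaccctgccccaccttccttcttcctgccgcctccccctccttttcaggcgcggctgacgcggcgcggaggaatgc
The motifs searched, on both strands, were the STAT-binding GAS element TTCNNNGAA, the cyclic AMP response element TGACGTCA, the AP-1 site TGANTCA, the GC box GGGCGG and the TATA box TATAAA. They stood in 7.02%, 1.55%, 6.75%, 32.74% and 12.37% of all 32851 windows of this length, in that order. A RefSeq window was at hand for 8 of the 10 members. The window of Itga10 held 1 GAS match, at position -189 from the start, and no other match. Itga5 had 2 GC boxes, Itgb1 had 1 at position -151, Itgb5 had 3, and Itga1, Itga2, Itga11 and Itgav had no match. The GC content was 48.0% before Itga10 and 68.4% before Itga11, against a median of 52.4% over all windows. A match is a description of the letters only.

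The libraries held 9061491 to 12017008 counts on genes, and the correlations of log2 CPM (read counts scaled to library size) between libraries ran from 0.899 to 0.956. Adgrg6, listed under its older symbol Gpr126, was at 109 ± 14.7 CPM (SD, n = 3) in controls and 122 ± 16.1 (SD, n = 3) in mutants (log2 fold change 0.17, edgeR adjusted p = 0.849). The paper reports reduced Adgrg6 RNA in its other conditional mutant, ATC;Adgrg6 f/f, by FISH and qPCR. A count over the whole gene may miss the removal of a part of it. Whether it did so here was not tested, so the count checks no label. Skeletal muscle markers summed to 4072 CPM in control replicate 1 and to 202 to 289 in the other 5 libraries. Markers of neurons and glia summed to 217 to 1647 CPM in controls and 904 to 3579 in mutants, with Tubb3 at 0 in every library, and red cell precursor markers to 36.0 to 317 and 198 to 409. Chondrocyte markers summed to 82699 to 142039 CPM in controls and 117359 to 144110 in mutants. Most of these sums is Col2a1, with means of 94670 CPM in controls and 113942 in mutants. Of the 10 markers 2 had a log2 fold change above 0, and their median was -0.29. At an unadjusted p under 0.05, 1 was lower and 0 higher (4.32% and 2.89% of all genes tested).

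By level, the members divided into an abundant set of 4 and a scarcer set of 6. Levels of different genes were compared as CPM per kilobase of the exons of a gene (GENCODE M21, GRCm38). In controls the order was Itga10 at 56.8 ± 11.1 (SD, n = 3), Itgb5 at 54.8 ± 5.79, Itga5 at 53.7 ± 10.8 and Itgb1 at 41.0 ± 1.47. The control ranges of Itga10 and Itgb5 overlapped, as did those of Itgb5 and Itga5, so the order among these 3 is within their spread. The scarcer genes followed: Itga11 at 5.46 ± 1.18, Itgav at 3.61 ± 0.678, Itga6 at 2.94 ± 0.693, Itga1 at 1.23 ± 0.263, Itgb3 at 1.11 ± 0.137 and Itga2 at 0.409 ± 0.179. Among them Itgav overlapped Itga6, and Itga1 overlapped Itgb3. In mutants the same length-scaled level put Itga5 first at 64.6 ± 9.07 and Itgb5 next at 62.5 ± 13.4, ahead of Itga10 at 51.6 ± 2.30 and Itgb1 at 47.1 ± 0.775. The mutant range of Itgb5, 47.5 to 73.4, overlapped those of Itga5, Itga10 and Itgb1, so its place in this order is within the spread. Scaled by coding length instead, the 4 abundant genes stayed ahead in controls, Itga5 moved above Itgb5, and Itgav and Itga6 moved above Itga11.

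These length-scaled levels have a limit that comes from the counting. Of 184 protein-coding genes that lie inside another gene on the same strand and share no exon base with it, 179 (97.3%) were at 0 counts in all libraries, against 14.6% of 18025 genes that touch no other gene on their strand. Pelo, which lies inside Itga1, was among those at 0. A count may therefore hold reads from introns, and the part of such reads was not tested. In Itgav, the opposite-strand transcript Gm13684 shares 634 exon bases and had 338 counts against the 2528 of Itgav. On the same strand, Itga10 shares 1739 of its 5186 exon bases with Gm42957, and Itga1 shares 685 with Gm49395. No count was at hand for Gm42957 or Gm49395, and the effect of these overlaps was not tested.

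**Figure D1:**
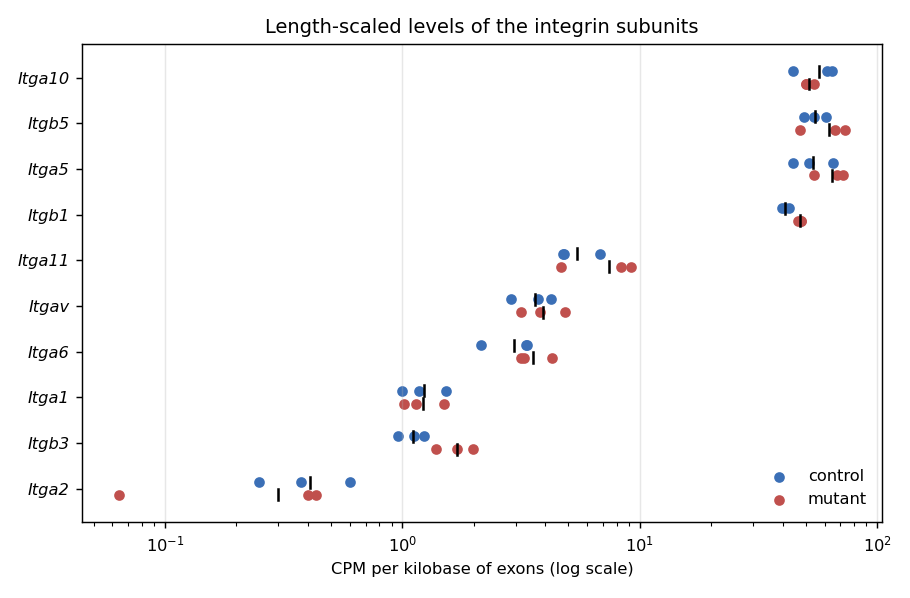
Expression of the 10 integrin subunits in CPM per kilobase of exons on a log scale, 1 point per library, with controls in blue, mutants in red and the group mean as a black bar. Itga10, Itgb5, Itga5 and Itgb1 lie far to the right of the other 6 genes in both groups.

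The comparison of mutant with control IVDs asks whether loss of Adgrg6 goes with another level of these receptors. No member passed edgeR's quasi-likelihood test, at an unadjusted p under 0.05 or after Benjamini-Hochberg adjustment over all genes tested. Of the 10 members 0 were higher and 0 lower at the unadjusted threshold, where 2.89% of all genes tested were higher and 4.32% lower, and 0 passed the adjusted threshold, as 0.00619% of all genes did. DESeq2, run without the low-count filter, and limma-voom with sample quality weights also called 0 members at either threshold. In the fit, 7 of the 10 log2 fold changes were above 0 and their median was 0.20, beside a median of -0.01 over all genes tested. The 3 mutant libraries all lay above the 3 controls for 2 members, Itgb1 and Itgb3, against 5.45% of all genes. They all lay below the controls for 0 members, against 5.96% of all genes. In whole discs, fewer cells of a type and less RNA per cell cannot be told apart. The pools are separate samples of 2 to 3 mice each. The edgeR p-values rest on the spread between pools, which the test draws partly from genes of like abundance.

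**Figure D2:**
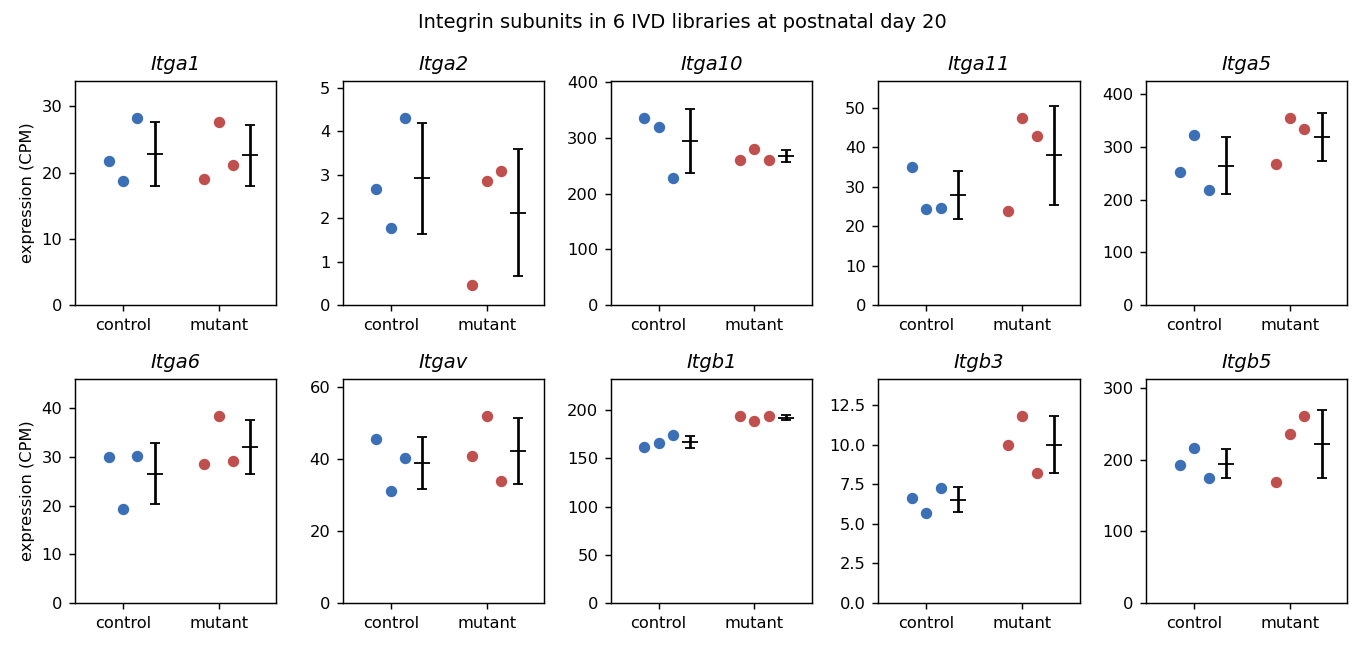
Expression in CPM of each integrin subunit, 1 point per library in replicate order, with the mean and SD of 3 libraries beside the points. The points of Itgb1 and Itgb3 separate by group, and those of the other 8 genes overlap.

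The collagen-binding alpha subunits showed no common direction in their values. Itga10 (chr3:96645584-96664519, plus strand), the chondrocyte collagen receptor, was at 335, 320 and 229 CPM in controls and 261, 281 and 261 in mutants. The mutants lay inside the control range. Its log2 fold change was -0.14 (SE 0.20, 95% interval -0.58 to 0.31, edgeR adjusted p = 0.897). The SD was 57.6 CPM in controls and 11.9 in mutants, since control replicate 3 stood low. Summed chondrocyte markers were also lowest in that library, at 82699 CPM against 132772 and 142039 in control replicates 1 and 2. Most of that sum is Col2a1, with a mean of 94670 CPM in controls. The part of these markers in the values of Itga10 was not tested. Leaving out 1 library at a time gave log2 fold changes from -0.28 to -0.02.

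Itga11 (chr9:62677826-62783982, plus strand), the fibrillar collagen receptor of fibroblasts, was at 35.0, 24.3 and 24.7 CPM in controls and 23.8, 47.3 and 42.8 in mutants. Mutant replicates 2 and 3 were above all controls and mutant replicate 1 was below all of them. The log2 fold change was 0.44 (SE 0.26, 95% interval -0.14 to 1.03, edgeR adjusted p = 0.749). The unadjusted call depended on single libraries and on the filter on low counts. Without mutant replicate 1 the log2 fold change was 0.72 and passed the unadjusted threshold (edgeR adjusted p = 0.939). Without control replicate 1 it was 0.65 and passed it too (edgeR adjusted p = 0.313). With all 6 libraries and no filter it was 0.46 and also passed (edgeR adjusted p = 0.548). Summed markers of tendon and outer annulus fibroblasts, which include Scx, Tnmd and Mkx, were also above all controls in mutant replicates 2 and 3. They were at 4342, 4534 and 3217 CPM in controls and 4183, 5738 and 5684 in mutants. Mutant replicate 1 was again the lowest mutant, but inside the control range. Of these 8 markers 4 were higher at an unadjusted p under 0.05 and 0 lower (2.89% and 4.32% of all genes tested), and their part in the values of Itga11 was not tested.

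Itga1 (chr13:114953096-115101964, minus strand), a receptor with a preference for network collagens, was at 21.7, 18.7 and 28.2 CPM in controls and 19.0, 27.7 and 21.1 in mutants. The groups covered nearly the same range, with a log2 fold change of -0.02 (SE 0.22, 95% interval -0.51 to 0.48, edgeR adjusted p = 0.991). Itga2 (chr13:114833081-114932100, minus strand), its neighbour and the collagen receptor known from platelets and epithelia, was the scarcest member with 164 counts over the 6 libraries. It was at 2.68, 1.78 and 4.30 CPM in controls and 0.455, 2.86 and 3.08 in mutants. Mutant replicate 1, with 4 counts, lay below all others, and the other mutants lay within the control range. The log2 fold change of -0.45 had a 95% interval from -1.96 to 1.07 (edgeR adjusted p = 0.905), so a change of 2.09-fold upward or to 0.256 of the control level was within the error at this depth.

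Within each library, the balance of these 4 receptors does not depend on the scaling between libraries. On the length-scaled level, Itga10 made up 88.7 ± 2.37% (SD, n = 3) of their sum in controls and 85.4 ± 3.77% (SD, n = 3) in mutants. The share of Itga11 was 8.59 ± 1.38% in controls and 12.1 ± 3.30% in mutants. The log2 ratio of Itga11 to Itga10 counts was -3.26, -3.72 and -3.21 in controls and -3.45, -2.57 and -2.61 in mutants. Mutant replicates 2 and 3 were above all controls and mutant replicate 1 was not. The difference of 0.52 had p = 0.3 in a two-sided exact permutation test (0.45 adjusted over 3 ratios), where 3 against 3 libraries can give no p below 0.1. With 1 library left out at a time the difference ran from 0.36 to 0.81, the highest without mutant replicate 1.

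**Figure D3:**
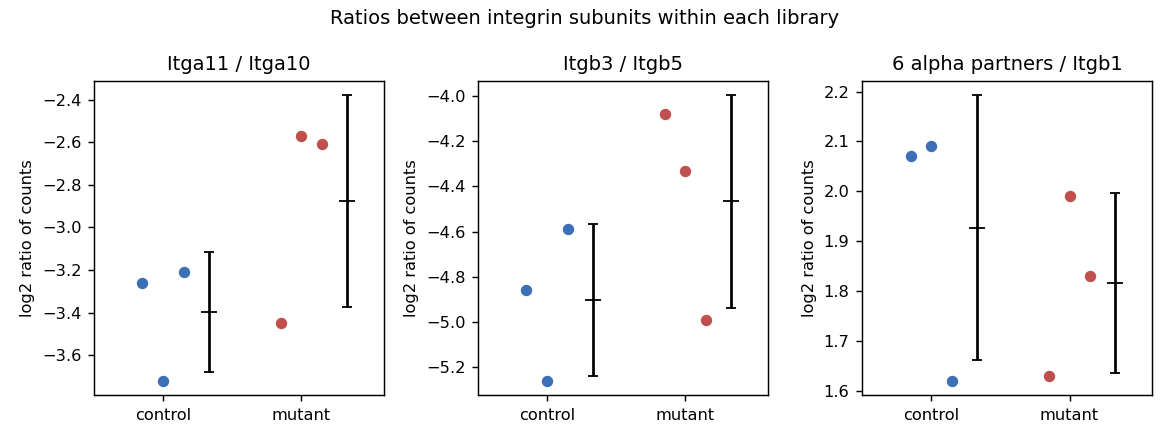
Log2 ratio of counts within each library for 3 pairs, Itga11 to Itga10, Itgb3 to Itgb5, and the sum of 6 alpha partners (without Itgav) to Itgb1, with mean and SD of 3 libraries. Control and mutant points overlap in each panel, and mutant replicate 1 stands below the other mutants in the Itga11 panel.

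Itga5 (chr15:103344286-103366763, minus strand), which with Itgb1 forms the main fibronectin receptor, was the most counted member with 17906 counts over the 6 libraries. It was at 253, 323 and 218 CPM in controls and 268, 354 and 334 in mutants. Mutant replicates 2 and 3 were above all controls, and mutant replicate 1 was inside their range. The log2 fold change was 0.27 (SE 0.21, 95% interval -0.20 to 0.74, edgeR adjusted p = 0.804). Among 6 alpha partners of Itgb1, leaving out Itgav, Itga5 made up 44.5 ± 4.09% of the length-scaled sum in controls and 50.1 ± 1.94% in mutants. Itga10 made up 47.0 ± 3.18% and 40.3 ± 3.41%. These shares were not tested.

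Itga6 (chr2:71745616-71858416, plus strand), the laminin-binding alpha subunit, was at 30.0, 19.3 and 30.3 CPM in controls and 28.5, 38.4 and 29.2 in mutants. Only mutant replicate 2 was above the controls, and control replicate 2 was the lowest of the 6 libraries. Its log2 fold change was 0.27 (SE 0.22, 95% interval -0.21 to 0.76, edgeR adjusted p = 0.807). Itgav (chr2:83724397-83806916, plus strand), the alpha chain for vitronectin and other RGD ligands and for latent TGF-beta, was at 45.4, 31.0 and 40.1 CPM in controls and 40.7, 51.8 and 33.9 in mutants. The groups overlapped, with a log2 fold change of 0.12 (SE 0.21, 95% interval -0.34 to 0.58, edgeR adjusted p = 0.919).

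Itgb1 (chr8:128685654-128733200, plus strand), the beta chain shared by most matrix receptors, was the steadiest member. It was at 162, 166 and 174 CPM in controls and 194, 189 and 194 in mutants, a mean of 167 ± 6.01 against 192 ± 3.16 (SD, n = 3 each). All mutants were above all controls, and the coefficient of variation in controls was 3.59%, the lowest of the 10 members. The log2 fold change was 0.20 (SE 0.16, 95% interval -0.16 to 0.56, edgeR adjusted p = 0.807), in a test whose spread is drawn partly from genes of like abundance. Leaving out 1 library at a time gave 0.19 to 0.24. The log2 ratio of the same 6 summed alpha partners, without Itgav, to Itgb1 was 1.92 ± 0.26 in controls and 1.82 ± 0.18 in mutants (SD, n = 3, difference -0.11, two-sided exact permutation p = 0.6, the same after adjustment over 3 ratios). With 1 library left out at a time the difference ran from -0.26 to -0.01.

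Itgb3 (chr11:104608000-104670476, plus strand), the vitronectin receptor chain known from osteoclasts, platelets and endothelium, had the largest log2 fold change above 0 among the members. It was at 6.64, 5.66 and 7.27 CPM in controls and 10, 11.8 and 8.18 in mutants, and all mutants were above all controls. The log2 fold change was 0.61 (SE 0.28, 95% interval -0.01 to 1.23, edgeR adjusted p = 0.691), a 1.53-fold difference with an interval from 0.995 to 2.35. Its unadjusted p lay just above 0.05. Without mutant replicate 3 the log2 fold change was 0.74 and passed the unadjusted threshold (edgeR adjusted p = 0.866), and without any other single library it did not. Cells known for Itgb3 were traced by their markers. Summed osteoclast markers were at 162, 129 and 111 CPM in controls and 121, 220 and 84.1 in mutants, and summed platelet markers at 31.8, 48.4 and 44.9 and at 40.3, 28.2 and 37.1. Both sums overlapped between the groups. No marker of either list was at 0 in every library, but only 4 of the 8 osteoclast and 4 of the 9 platelet markers had enough counts to be tested. Endothelial markers summed to 146 to 276 CPM in controls and 220 to 254 in mutants, 7 of these 8 had a log2 fold change above 0 with a median of 0.37 (48.4% of all genes tested were above 0), and 0 passed the unadjusted threshold (2.89% of all genes higher, 4.32% lower). The part of these cells in the values of Itgb3 was not tested.

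Itgb5 (chr16:33829665-33949338, plus strand), the vitronectin receptor chain of many mesenchymal cells, was at 193, 216 and 175 CPM in controls and 169, 236 and 261 in mutants. Mutant replicates 2 and 3 were above all controls and mutant replicate 1 was below them, as for Itga11. The log2 fold change was 0.19 (SE 0.21, 95% interval -0.27 to 0.65, edgeR adjusted p = 0.853). On the length-scaled level Itgb5 was 56.5 ± 3.25% of the 3 beta chains in controls and 55.7 ± 5.77% in mutants, Itgb1 was 42.4 ± 3.06% and 42.8 ± 5.54%, and Itgb3 was 1.15 ± 0.196% and 1.54 ± 0.353%. The log2 ratio of Itgb3 to Itgb5 counts was -4.86, -5.26 and -4.59 in controls and -4.08, -4.33 and -4.99 in mutants. Mutant replicate 3 lay among the controls, and the difference of 0.44 had a two-sided exact permutation p = 0.3 (0.45 adjusted over 3 ratios). With 1 library left out at a time the difference ran from 0.24, without mutant replicate 1, to 0.7, without mutant replicate 3.

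**Figure D4:**
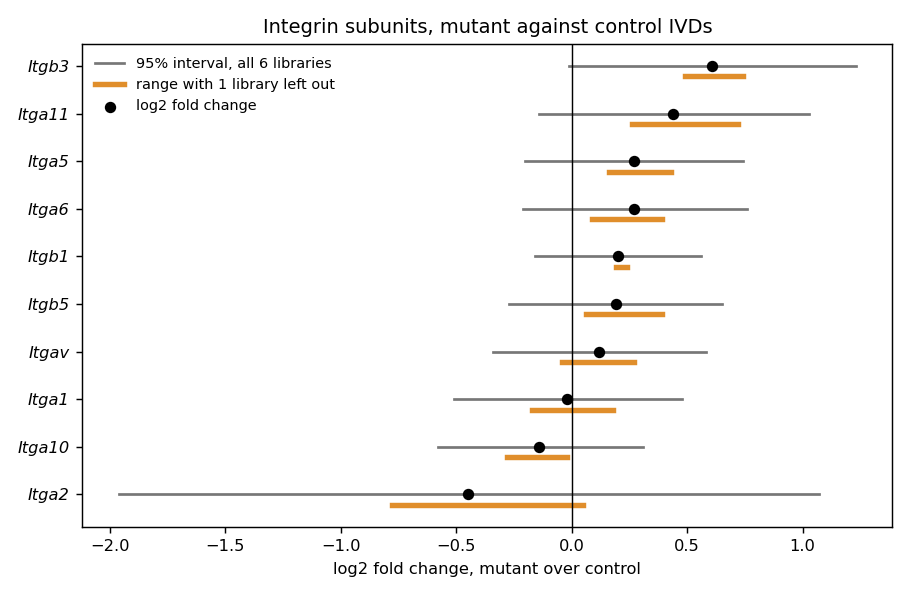
Log2 fold change of each integrin subunit, mutant over control (black points), with its 95% interval (grey) and the range when 1 library is left out (orange). All 10 grey intervals cross 0, from Itgb3 at 0.61 to Itga2 at -0.45.

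The other 16 integrin subunits, which pair in receptors of leukocytes, epithelia and other cells, were all tested. Of these, 0 were higher and 3 lower at an unadjusted p under 0.05 (2.89% and 4.32% of all genes tested), their median log2 fold change was -0.19, and 0 passed the adjusted threshold. Itgb6, an epithelial partner of Itgav, was at 2.68, 2.55 and 4.77 CPM in controls and 0.569, 0.408 and 0.531 in mutants, with 5 counts in each mutant library (log2 fold change -2.72, SE 0.60, edgeR adjusted p = 0.553). Its groups did not overlap. Itgae, of intraepithelial lymphocytes, was at 4.71, 3.22 and 8.44 CPM in controls and 1.93, 2.45 and 1.81 in mutants (log2 fold change -1.40, edgeR adjusted p = 0.676), and without control replicate 3 it was -0.92 and passed no threshold (edgeR adjusted p = 0.999). Itgad, a leukocyte subunit, was at 21.3, 2.11 and 3.05 CPM in controls and 2.16, 0.326 and 0.744 in mutants (log2 fold change -3.06, edgeR adjusted p = 0.676). It was highest in control replicate 1, the library with the high muscle markers, and without that library its log2 fold change was -1.27 and passed no threshold (edgeR adjusted p = 0.52). With all 6 libraries Itgad passed the adjusted threshold without the filter on low counts (edgeR adjusted p = 0.00149) and with DESeq2, also without that filter (adjusted p = 0.0408), while with limma-voom and quality weights it was -2.12 and passed no threshold (adjusted p = 0.55).

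Inside the cell, integrins are switched on by talin and kindlin and signal through focal adhesion adaptors and kinases. Of 30 such genes listed, 28 were tested, 2 were higher and 0 lower at an unadjusted p under 0.05 (2.89% and 4.32% of all genes tested), and 0 passed the adjusted threshold. The log2 fold changes lay in a narrow band, with 25 of 28 above 0 and a median of 0.18, beside 48.4% above 0 and a median of -0.01 over all genes. Over these 28, all mutants lay above all controls for 7 and below them for 0 (5.45% and 5.96% of all genes tested). Flna, the actin crosslinker filamin A that binds beta tails, was at 187 ± 18.6 CPM in controls and 257 ± 41.8 in mutants (SD, n = 3, log2 fold change 0.46, edgeR adjusted p = 0.684). Its groups did not overlap. Dab2, an endocytic adaptor of integrin beta tails, was at 111 ± 25.4 and 153 ± 19.3 CPM (log2 fold change 0.47, edgeR adjusted p = 0.691), and its groups overlapped. With control replicate 2 or mutant replicate 1 left out, 0 genes of this list passed the unadjusted threshold. Without control replicate 3 or mutant replicate 3 there was 1, and without mutant replicate 2 there were 5. Over all genes, 929 of 16610 passed it without control replicate 2 and 817 of 17179 without mutant replicate 1. It was passed by 618 of 16388 without control replicate 3 and 874 of 17142 without mutant replicate 3. Without mutant replicate 2 the count was 1669 of 17095.

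Transcripts of several matrix ligands of these receptors were higher in the mutants at the unadjusted threshold. Of 24 matrix ligands other than collagens, 4 were higher and 1 lower at an unadjusted p under 0.05 (2.89% and 4.32% of all genes tested), their log2 fold changes had a median of 0.22, and 0 passed the adjusted threshold with edgeR. Postn (periostin), a ligand of Itgav receptors, was at 93.3, 45.5 and 51.5 CPM in controls and 143, 150 and 135 in mutants, all mutants above all controls (log2 fold change 1.17, edgeR adjusted p = 0.553). Tnc (tenascin C) was at 59.7 ± 30.8 and 116 ± 13.0 CPM (log2 fold change 0.96, edgeR adjusted p = 0.676). With DESeq2 and no low-count filter, Postn passed the adjusted threshold (adjusted p = 0.00386). Without control replicate 1 both Postn and Tnc did (log2 fold changes 1.57 and 1.48, edgeR adjusted p = 0.0187 and 0.0361). Of the laminin chains, Lamb1 was at 17.8 ± 4.99 and 28.3 ± 4.82 CPM (log2 fold change 0.67, edgeR adjusted p = 0.676), and Lama2 at 32.0 ± 7.49 and 20.4 ± 2.09 (log2 fold change -0.65, edgeR adjusted p = 0.676). Lamc1, named after its values were seen as the remaining ligand past the unadjusted threshold, was at 46.1 CPM in controls and 67.2 in mutants (log2 fold change 0.54). Without control replicate 3 the count of ligands at the unadjusted threshold was 2, and without mutant replicate 1 it was 3. Without control replicate 1 it was 9. Over all genes, 618 of 16388 passed that threshold without control replicate 3 and 817 of 17179 without mutant replicate 1. It was passed by 2427 of 17164 genes without control replicate 1. The tendon and annulus markers named above had a median log2 fold change of 0.5 in the same libraries. Their part in the ligand values was not tested.

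Of 14 collagens, 6 were higher and 2 lower at an unadjusted p under 0.05 (2.89% and 4.32% of all genes tested), their log2 fold changes had a median of 0.40, and 0 passed the adjusted threshold with edgeR. Col3a1, a fibrillar collagen of fibrous tissue, was at 1855 ± 252 CPM in controls and 3925 ± 1022 in mutants (log2 fold change 1.08, edgeR adjusted p = 0.627). Col5a2 and Col5a1, the chains of type V collagen, had log2 fold changes of 0.87 and 0.80 (edgeR adjusted p = 0.665 and 0.676). The cartilage collagen Col9a3 was at 4539 ± 948 and 2739 ± 382 CPM (log2 fold change -0.73, edgeR adjusted p = 0.676). With DESeq2 and no low-count filter, Col3a1, Col5a2 and Col5a1 passed the adjusted threshold (adjusted p = 0.000794, 0.0152 and 0.0266). The groups of these 4 collagens did not overlap. Over the 14 collagens, all mutants lay above all controls for 4 and below them for 1 (5.45% and 5.96% of all genes tested). The count of 8 at the unadjusted threshold was 3 without mutant replicate 3 and 5 without control replicate 2, control replicate 3 or mutant replicate 2. Over all genes, 874 of 17142 passed it without mutant replicate 3 and 929 of 16610 without control replicate 2. It was passed by 618 of 16388 without control replicate 3 and 1669 of 17095 without mutant replicate 2. The tendon and annulus markers named above lie in the same libraries, and their part in the collagen values was not tested.

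**Figure D5:**
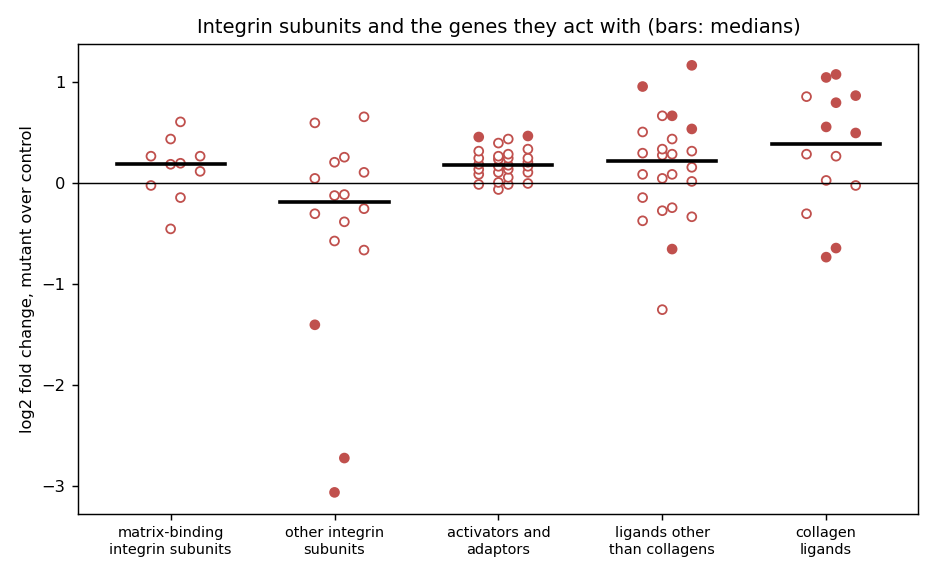
Log2 fold change, mutant over control, of each tested gene in 5 lists, with filled points for an unadjusted p under 0.05 and a bar at the list's median. The 10 matrix-binding subunits have no filled point and a median of 0.20, and the collagens have the highest median, 0.40.

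Likeness across libraries was described for 3 members as Pearson's r of log2 CPM over the 6 libraries, 3 of each genotype, and with 6 points many genes reach a high r. For Itgb1 the 5 most alike genes were Sned1 (r = 0.995, n = 6), Tpsb2, Nov, Hemgn and Pcyox1, and 28 genes had r above 0.95. Of these, Tpsb2 at 0.780 CPM and Hemgn at 0.962 CPM, are sparse. For Itga10 the leading genes were Zfp493 (r = 0.980, n = 6), Cd9, Rhot2 and Sult5a1, with 13 genes above 0.95. For Itga11 they were Scpep1os (r = 0.984, n = 6), Cep120, Zmym2, Cds2 and Zak, with 30 genes above 0.95.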

How the data were processed

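IVD RNA was enriched for poly(A) and made into libraries by the submitters with a NEBNext Ultra kit. The deposited files hold raw read counts per gene for 6 libraries, made by the authors. The submitters' processing notes name STAR 2.5.3a, HTSeq, DESeq2 and mm10/GRCm38, whereas the paper's methods name HISAT2, StringTie and Ballgown, and the strand setting is not given in the sources used here. Rows that name no gene (39.43% to 43.33% of reads outside features, 11.97% to 18.87% not aligned) were left out. The authors' table of fold changes, p-values and normalised values was not used.

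Counts were tested with edgeR 4.0.16 (quasi-likelihood, TMM, filterByExpr with a minimum count of 10) in R 4.3.3, genotype as the only term, Benjamini-Hochberg adjusted over 16152 genes, at 0.05. The code was tested on simulated data. CPM use TMM library sizes, and log2 CPM for correlations add a prior count of 2. Alternatives were RLE scaling, no filter, a replicate block, DESeq2 1.42.0 (without the low-count filter but with its own independent filtering), limma-voom with sample quality weights (limma 3.58.1) and leaving out each library. Ratios were tested with scipy 1.17.1.

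Members and lists were chosen with earlier results of these data known. All 10 members are named, and in each of the lists of other integrins, adaptors, ligands and collagens the genes with the smallest p below 0.05, at most 4. Among the ligands, Lamc1 was named in addition, after its values were seen. For Itgb1, Itga10 and Itga11 the 5 genes most alike are named, except 1 for Itga10 that is not reported here.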

Additional observations from a re-analysis of the deposited data

How the results depend on the processing

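Of 110 member results under alternatives (10 genes, 11 alternatives each), 97 kept their direction and their side of the unadjusted threshold, 9 changed sign and 4 passed the threshold. Itga1 changed sign, to 0.01, without the filter, with DESeq2 (also without that filter) and with limma-voom and sample quality weights. Leaving out 1 library gave log2 fold changes from -0.17 to 0.18 for Itga1, -0.78 to 0.05 for Itga2 and -0.04 to 0.27 for Itgav. Without the filter 1 member passed the unadjusted threshold (Itga11, 0.46, edgeR adjusted p = 0.548), and leaving out 1 library gave 0 to 1. Over all genes the count of 1164 at the unadjusted threshold became 2276 without the filter and 618 to 2427 with 1 library left out. The cause was not tested. After adjustment, 0 members passed under every alternative, while the count over all genes went from 1 to 245 without the filter, 52 with DESeq2 and no such filter, 0 with limma-voom and quality weights, and 0 to 31 with 1 library left out. Without the filter or with DESeq2 the median over all genes was -0.09 and that of the members 0.21.

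The sources used here do not state that same-numbered libraries were paired. Correlations of deviations from the group means were 0.159, -0.132 and 0.101 between same-numbered libraries. Between the other control and mutant libraries they ran from -0.265 to 0.179. With 3 libraries per group, these values cannot tell whether the libraries were paired. With the number as a replicate block, 1002 genes and 0 members passed the unadjusted threshold, 0 genes passed after adjustment, and Itgb3 had a log2 fold change of 0.60 (edgeR adjusted p = 0.854). The adaptor list then had 0 genes at the unadjusted threshold, and with limma-voom and quality weights 4, in place of 2. With limma-voom and quality weights 1476 of all 16152 genes passed that threshold. The ratios had no blocked test that could pass, with 3 pairs. Without the filter Postn, Tnc and Itgad passed the adjusted threshold (edgeR adjusted p = 0.000967, 0.0169 and 0.00149). Leaving out 1 library or using the block took the unadjusted call from each of Flna, Dab2, Lamb1, Lama2, Col9a3, Itgae, Itgad. The depth leaves Itga2 and Itgb3 with few counts, 164 and 515 over all libraries.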
